A study of Mus musculus with 3 samples.

Results

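The forkhead (Fox) family of transcription factors was read across 3 RNA-seq libraries of cells isolated from mouse embryonic digits at the time the finger joints form. Its members were all rows whose gene symbol was Fox followed by a subfamily letter from a to s and a number, with the older symbol Foxf1a (Foxf1) included. The rule used names and no measured value, and it found 44 of the 23284 genes listed in each file. All 44 matched a gene annotated as protein-coding.

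The library labelled Lgr5+ held interzone cells of forelimb digits at E14.5 (E for embryonic day) from Lgr5-eGFPCreERT2/+ mice. The library labelled Lgr5- held the non-interzone cells of the same line, digits and day. The library labelled Sox9+ held digit cells at E13.5 from Sox9-eGFP/+ mice, and its labels do not say which limb was used. All mice were given as C57/bl6, and each group was 1 library with no replicate. The interzone is the band of flattened cells that marks a future joint. Lgr5 is a receptor for R-spondins, and Sox9 is the transcription factor that starts cartilage formation. Both E14.5 libraries carry the Lgr5 reporter allele and the E13.5 library carries the Sox9 reporter instead. Day, reporter line and possibly limb therefore differ together between either E14.5 library and the Sox9+ library, and they cannot be told apart.

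Forkhead proteins bind DNA through a winged-helix domain that the whole family shares, and the regions outside it set how each subfamily acts. FoxO proteins are held out of the nucleus when insulin and growth factor signals activate Akt, Foxm1 drives genes of mitosis, and FoxP proteins mostly repress transcription. In the developing skeleton, Foxc1 and Foxc2 act in mesenchyme and early cartilage, FoxA proteins activate genes of hypertrophic chondrocytes, FoxP proteins bind Runx2, and FoxF genes respond to hedgehog signals in several kinds of mesenchyme.

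Expression was given as FPKM, in which fragments are divided by gene length and sequencing total, so levels of different genes can be set side by side. All values of a library summed to 534025 FPKM for Lgr5+, 547115 FPKM for Lgr5- and 593871 FPKM for Sox9+ cells, and the number of fragments behind them is unknown. The ribosomal RNA gene Rn45s alone stood at 9924, 33545 and 38179 FPKM in the Lgr5+, Lgr5- and Sox9+ libraries. The gene Lgr5 stood at 26.8, 1.36 and 3.48 FPKM in the Lgr5+, Lgr5- and Sox9+ libraries, and Sox9 at 332, 147 and 255 FPKM. The interzone growth factor gene Gdf5 stood at 615, 71.7 and 59.9 FPKM in the same libraries. Log2 ratios and folds below were taken after adding 1 FPKM to every value, so they come out too small for weak genes. For a pair of libraries, genes whose larger value was 1 FPKM or more were called measured, and those at 2-fold or beyond were called higher or lower. With 1 library per group there is no test, error or p-value, and each comparison is between libraries. In bulk libraries, fewer cells of a type and less RNA per cell cannot be told apart.

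Of the 44 forkhead genes, 24 reached 1 FPKM in at least 1 library, 19 reached it in all 3, and 8 stood at 10 FPKM or more in all 3. Those 8 were Foxc1, Foxj3, Foxk2, Foxm1, Foxn3, Foxp1, Foxp2 and Foxp4. Another 15 genes had values between 0 and 1 FPKM, and Foxd4, Foxi1, Foxi2, Foxr2 and Foxs1 were listed at 0 in every library. In the Lgr5+ library 21 members reached 1 FPKM, in the Lgr5- library 20 and in the Sox9+ library 24. The family as a whole summed to 365 FPKM in Lgr5+ cells, 348 FPKM in Lgr5- cells and 453 FPKM in Sox9+ cells, which is 0.0683%, 0.0636% and 0.0763% of each library's sum.

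**Figure D1:**
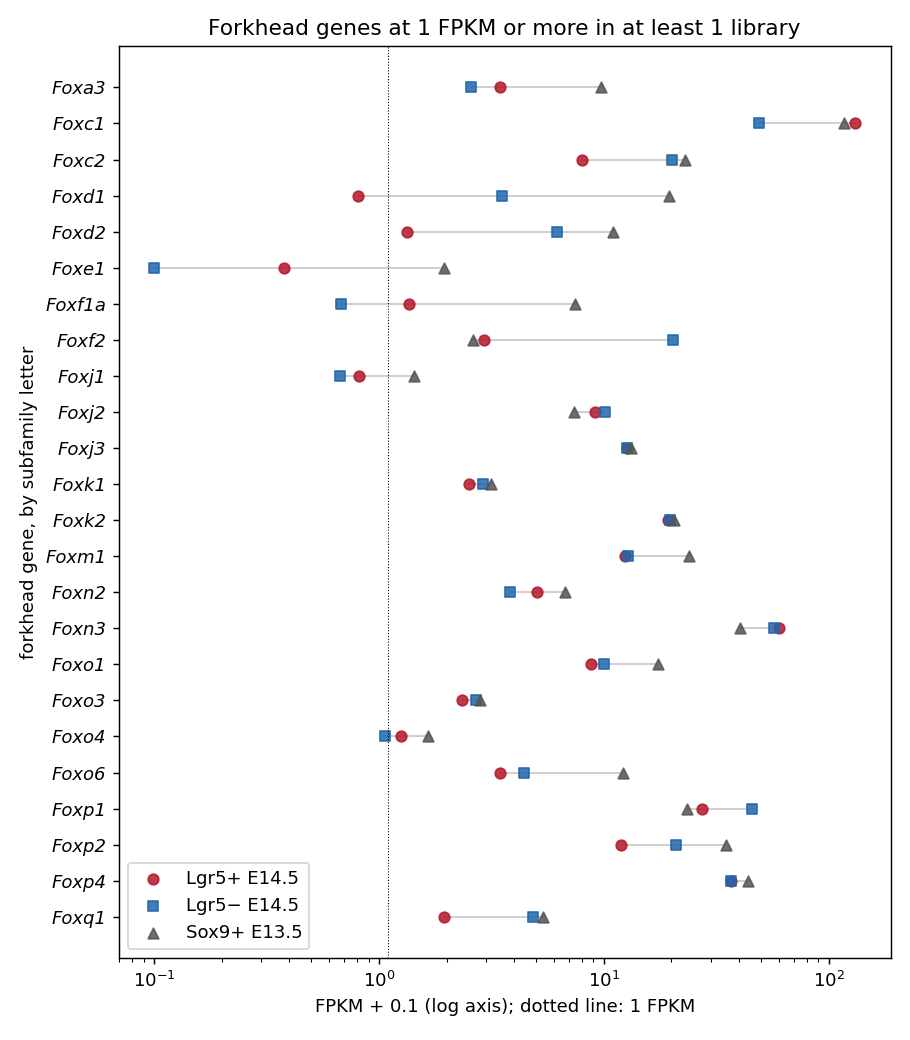
FPKM (with 0.1 added, on a log axis) of the 24 forkhead genes that reached 1 FPKM in at least 1 library, with 1 row per gene, red circles for Lgr5+ E14.5, blue squares for Lgr5- E14.5 and grey triangles for Sox9+ E13.5 (1 library each, no error). Foxc1 lies farthest right at up to 131 FPKM, Foxf2 has a lone blue square at 20.2 FPKM, and the 3 symbols of Foxj3 and Foxk2 nearly coincide.

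Foxc1 was the most abundant forkhead RNA in the Lgr5+ and Sox9+ libraries and second to Foxn3 in the Lgr5- library. It made up 36% of the family's summed FPKM in Lgr5+ cells, 14.1% in Lgr5- cells and 25.8% in Sox9+ cells. Without Foxc1 the family summed to 233, 299 and 336 FPKM in the same order. The FoxC subfamily took 38.2% of the family sum in the Lgr5+ library, 19.9% in Lgr5- cells and 30.8% in Sox9+ cells. The FoxP subfamily took 20.7%, 29.7% and 22.5%, and the FoxN subfamily 17.8%, 17.4% and 10.4%. FoxF genes took 1.13% in Lgr5+ cells, 5.97% in Lgr5- cells and 2.18% in Sox9+ cells, and FoxD genes took 0.535%, 2.86% and 6.91%.

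**Figure D2:**
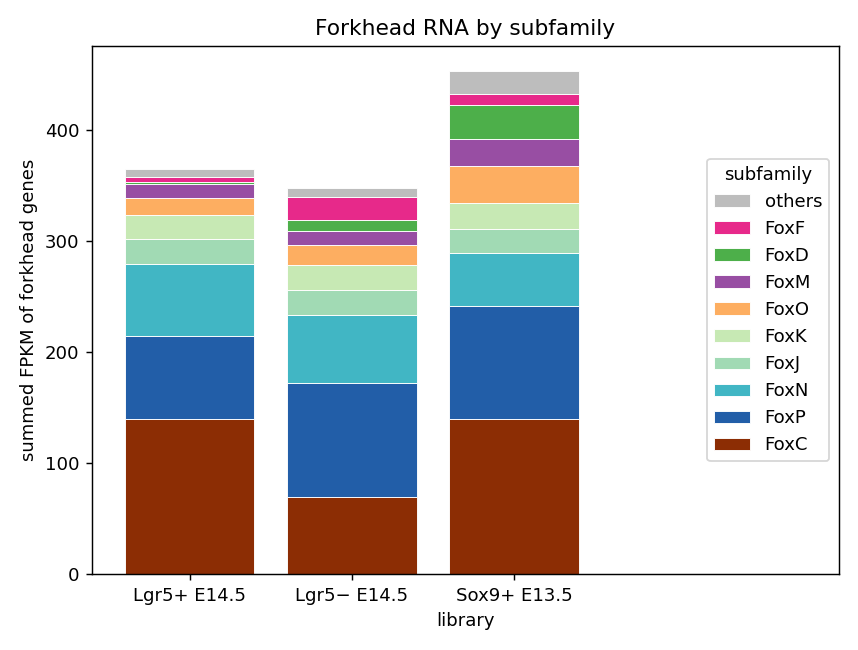
Summed FPKM of all forkhead genes (linear axis from 0) in the Lgr5+ E14.5, Lgr5- E14.5 and Sox9+ E13.5 libraries, split by subfamily; each bar is 1 library, so there is no error bar. The bars reach 365, 348 and 453 FPKM, and the FoxC part is smallest in the Lgr5- library at 69.2 FPKM.

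The 24 expressed members were split by the 2-fold threshold, and values lay close to it on both sides. Foxq1 differed 2.02-fold between the Lgr5+ and Lgr5- libraries and Foxp1 1.91-fold between the Lgr5- and Sox9+ libraries. Between at least 1 pair of libraries 11 of the 24 differed 2-fold or more, where 13.9% of all 12754 genes at 1 FPKM or more did. The 13 others (Foxj1, Foxj2, Foxj3, Foxk1, Foxk2, Foxm1, Foxn2, Foxn3, Foxo1, Foxo3, Foxo4, Foxp1 and Foxp4) stayed within 2-fold in every pair in which they were measured. They included every expressed FoxJ, FoxK, FoxM and FoxN gene. The 11 that differed were Foxa3, Foxc1, Foxc2, Foxd1, Foxd2, Foxe1, Foxf1a, Foxf2, Foxo6, Foxp2 and Foxq1. The name rule did not use gene structure. By the GENCODE annotation 13 of the 44 genes have a single exon, 6 of these 13 were expressed, and all 6 of those (Foxc1, Foxc2, Foxd1, Foxd2, Foxe1 and Foxq1) differed in at least 1 pair. Of the 18 expressed members with introns, 5 differed (Foxa3, Foxf1a, Foxf2, Foxo6 and Foxp2), so the members that differed were of both kinds. Among all protein-coding genes at 1 FPKM or more, 28.3% of 272 with a single exon and 13.4% of 10933 with introns differed in at least 1 pair.

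Lgr5+ cells were first set against Lgr5- cells, which compares the labelled interzone with the other digit cells of that day, and 22 forkhead genes were measured. Foxc1 was higher in the Lgr5+ library, and Foxf2, Foxd2, Foxd1, Foxc2 and Foxq1 were lower. Among all 12438 measured genes 5.53% passed 2-fold, 3.64% as higher and 1.89% as lower in Lgr5+ cells, so the 1 higher member is near the background share and the 5 lower members are above it. The median log2 ratio was -0.14 over the 22 members and 0.08 over all measured genes. The median size of the log2 ratio, whatever its sign, was 0.31 for the members and 0.24 for all genes.

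The FoxC, FoxF and FoxQ genes are chromosome neighbours, and their levels went different ways. On mouse chromosome 13 (build GRCm38), Foxq1 (31556134 to 31560976), Foxf2 (31625816 to 31631403) and Foxc1 (31806633 to 31812476) lie in this order on the plus strand. The gaps are 64.8 kb and 175 kb, with no other protein-coding gene lying whole within them. Foxc1, which acts in eye, skull and limb skeleton formation, stood at 131 FPKM in Lgr5+ cells, 49.1 FPKM in Lgr5- cells and 117 FPKM in Sox9+ cells. It was thus 2.64-fold higher in the Lgr5+ than in the Lgr5- library (log2 ratio 1.40), and 2.35-fold lower in the Lgr5- than in the Sox9+ library (log2 ratio -1.23). Between the Lgr5+ and Sox9+ libraries its log2 ratio was 0.17. Foxf2, which acts in palate and gut mesenchyme and in brain pericytes, stood at 2.85 FPKM in Lgr5+ cells, 20.2 FPKM in Lgr5- cells and 2.52 FPKM in Sox9+ cells. It was high in the Lgr5- library alone, 5.51-fold lower in the Lgr5+ library (log2 ratio -2.46) and 6.02-fold higher in the Lgr5- than in the Sox9+ library (log2 ratio 2.59). Only 19 of the 12438 measured genes had a lower Lgr5+ to Lgr5- ratio than Foxf2, which was 20th from the bottom. Foxq1, known from the satin hair mutant of the mouse, stood at 1.85, 4.77 and 5.26 FPKM in the Lgr5+, Lgr5- and Sox9+ libraries. It was 2.02-fold lower in the Lgr5+ than in the Lgr5- library, just past the threshold.

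The promoters of the neighbours that moved in opposite directions, Foxc1 and Foxf2, are printed as the 250 bases before the RefSeq start (GRCm38.p6), 5′ to 3′ on the gene's strand. The FoxD promoters are added because both FoxD genes were lower in the Lgr5+ library. Capitals mark matches on either strand to the GC box letters GGGCGG.
Foxc1, chr13:31806396-31806645, plus strand: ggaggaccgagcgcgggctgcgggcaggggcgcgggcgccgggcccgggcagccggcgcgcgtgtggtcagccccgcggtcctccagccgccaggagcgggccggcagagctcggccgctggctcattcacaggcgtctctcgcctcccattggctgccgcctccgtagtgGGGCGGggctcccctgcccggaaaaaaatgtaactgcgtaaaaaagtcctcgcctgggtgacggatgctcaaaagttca
Foxf2, chr13:31625566-31625815, plus strand: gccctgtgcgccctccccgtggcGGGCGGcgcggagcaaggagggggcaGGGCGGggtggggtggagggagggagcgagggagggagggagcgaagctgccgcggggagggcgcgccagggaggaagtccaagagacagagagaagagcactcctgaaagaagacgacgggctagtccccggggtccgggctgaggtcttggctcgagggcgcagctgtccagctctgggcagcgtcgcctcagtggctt
Foxd1, chr13:98353995-98354244, plus strand: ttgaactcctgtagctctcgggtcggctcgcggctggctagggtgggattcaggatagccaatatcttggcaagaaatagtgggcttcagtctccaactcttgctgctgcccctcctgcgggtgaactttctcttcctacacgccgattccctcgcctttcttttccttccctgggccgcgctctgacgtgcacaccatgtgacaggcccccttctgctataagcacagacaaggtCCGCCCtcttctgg
Foxd2, chr4:114908899-114909148, minus strand: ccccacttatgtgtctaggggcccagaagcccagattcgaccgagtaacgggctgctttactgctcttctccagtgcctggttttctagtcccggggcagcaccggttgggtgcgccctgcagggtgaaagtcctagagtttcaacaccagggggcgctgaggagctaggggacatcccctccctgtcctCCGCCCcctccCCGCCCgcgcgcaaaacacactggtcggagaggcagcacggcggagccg
Over these 250 bases, GC content was 70.8% for Foxc1, 71.6% for Foxf2, 57.2% for Foxd1 and 64.4% for Foxd2, where the median of all 32851 promoters in the table was 52.4%. CpG pairs numbered 29, 21, 12 and 16 in the same order, against a median of 6. The GC box letters occurred in all 4, once in Foxc1 and Foxd1 and at 2 places in Foxf2 and Foxd2, and in 32.7% of all promoters. None of the 4 windows held TGTTTAC (the core letters that forkhead proteins bind, in 3.17% of all promoters), AACAAT (a SOX core, in 9.42%) or GACCACCCA (a GLI site, in 0.225%). All 4 motifs were searched on both strands, and no match to one overlapped a match to another in these windows, since the GC box alone matched.

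On mouse chromosome 8, Foxf1a (121084386 to 121088144), Foxc2 (121116171 to 121118895) and Foxl1 (121127940 to 121130644) lie in the same orientation, with gaps of 28 kb and 9.04 kb. This is the paralogous cluster, in which FoxF and FoxC genes again adjoin. Foxf1a, needed for lung and gut mesenchyme, stood at 1.26 FPKM in Lgr5+ cells, 0.58 FPKM in Lgr5- cells and 7.37 FPKM in Sox9+ cells. It was high in the Sox9+ library alone, 3.7-fold lower in the Lgr5+ library (log2 ratio -1.89) and 5.3-fold lower in the Lgr5- library (log2 ratio -2.41) than there. Foxc2, which acts in lymphatic valves and the axial skeleton, stood at 7.93 FPKM in Lgr5+ cells, 20.1 FPKM in Lgr5- cells and 22.9 FPKM in Sox9+ cells. It was low in the Lgr5+ library alone, 2.36-fold below the Lgr5- library (log2 ratio -1.24) and 2.67-fold below the Sox9+ library (log2 ratio -1.42). Foxl1, a gut mesenchyme factor, stayed at 0.14, 0.12 and 0.1 FPKM. The gene Mthfsd, which lies between Foxf1a and Foxc2, stood at 7.38, 7.69 and 6.9 FPKM in the Lgr5+, Lgr5- and Sox9+ libraries.

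**Figure D3:**
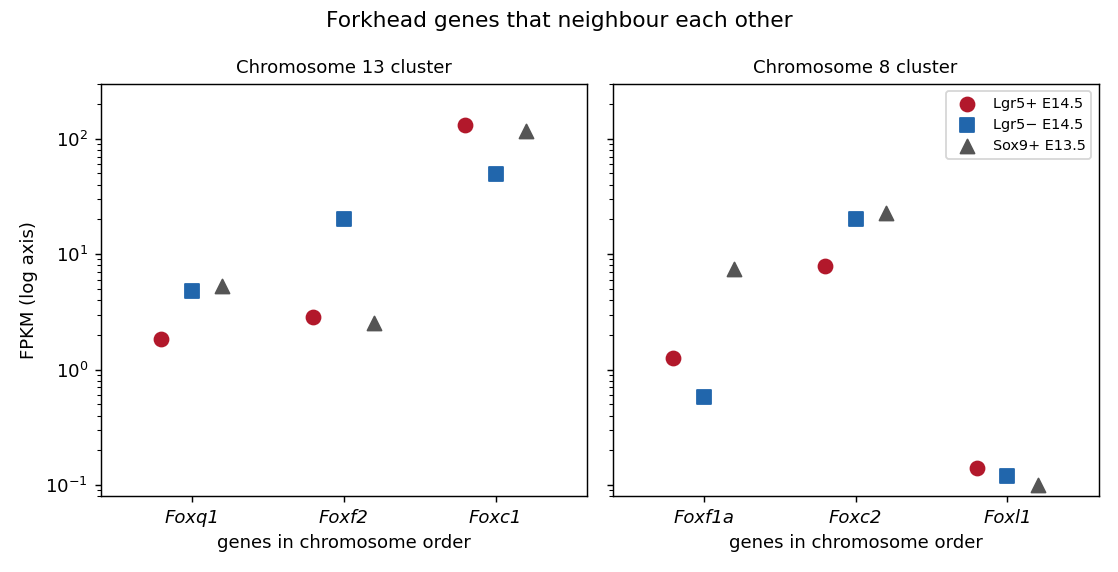
FPKM (log axis) of the forkhead genes of the chromosome 13 cluster (left) and the chromosome 8 cluster (right), in chromosome order, in the Lgr5+ E14.5 (red circles), Lgr5- E14.5 (blue squares) and Sox9+ E13.5 (grey triangles) libraries, 1 library each. Foxf2 is highest in the Lgr5- library at 20.2 FPKM and Foxc1 is lowest there at 49.1 FPKM, while Foxf1a is highest in the Sox9+ library at 7.37 FPKM.

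Ratios within a library do not depend on how libraries are scaled to each other. Foxc1 had 16.6 times the FPKM of its paralogue Foxc2 in the Lgr5+ library, 2.45 times in Lgr5- cells and 5.11 times in Sox9+ cells. Foxc1 had 46.1 times the FPKM of Foxf2 in the Lgr5+ library, 2.43 times in Lgr5- cells and 46.4 times in Sox9+ cells. The FoxF pair was exchanged: Foxf2 had 2.26 times the FPKM of Foxf1a in the Lgr5+ library, 34.8 times in Lgr5- cells and 0.342 times in Sox9+ cells.

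Pathway and cell type lists were read beside these genes. Of 14 perichondrium and connective tissue genes, 5 were lower in the Lgr5+ than in the Lgr5- library (Twist1, Twist2, Prrx1, Prrx2 and Dlx5), 1 was higher (Fgfr2), and the median log2 ratio was -0.51. Between the Lgr5- and Sox9+ libraries, 3 of the 14 were higher (Prrx1, Prrx2 and Msx1), none was lower, and the median was 0.58. Of 12 measured hedgehog pathway genes, Hhip and Cdon were higher in Lgr5+ than in Lgr5- cells, and the median log2 ratio of the 12 was -0.06. Against Sox9+ cells, 5 of the 12 were higher in Lgr5+ cells (Gli2, Gli3, Hhip, Cdon and Gas1) and Ihh was lower, with a median of 0.16, and Gas1 was higher in Lgr5- cells, with a median of 0.46. The hedgehog response gene Gli1 stood at 16, 26.8 and 18.4 FPKM and Ptch1 at 20.5, 27.6 and 33 FPKM in the Lgr5+, Lgr5- and Sox9+ libraries. Both were within 2-fold in each pair. The 12 markers of endothelium and pericytes summed to 82.4 FPKM in Lgr5+ cells, 87.6 FPKM in Lgr5- cells and 89.7 FPKM in Sox9+ cells, with Cspg4, also made by other cells, giving 52, 26 and 63.7 FPKM of these sums. The median log2 ratio of the measured ones was -0.47 for Lgr5+ over Lgr5- (10 genes) and 0.81 for Lgr5- over Sox9+ (9 genes). The endothelial genes Pecam1, Tek, Tie1, Emcn and Cldn5 were highest in Lgr5- cells, as was Cdh5, which stayed under 1 FPKM. Cldn5 stood at 1.3, 2.45 and 0.79 FPKM and Tek at 0.75, 1.52 and 0.31 FPKM in the Lgr5+, Lgr5- and Sox9+ libraries. Foxf2 was highest in Lgr5- cells too. With 1 FPKM added, these endothelial genes stayed within 2-fold in each pair in which they were measured, but that addition shrinks the ratios of genes this weak. The endothelial gene Kdr was highest in Lgr5+ cells, at 1.64, 1.28 and 1.15 FPKM in the same libraries. Pdgfrb, also made by other mesenchyme, stood at 17, 47.1 and 19.6 FPKM in the Lgr5+, Lgr5- and Sox9+ libraries, and Rgs5 at 4.25, 0.56 and 0.54 FPKM. Pdgfrb was thus lower and Rgs5 higher in Lgr5+ than in Lgr5- cells. The pericyte channel gene Kcnj8 stood at 0.47, 1.32 and 0.56 FPKM and Abcc9 at 0.25, 0.21 and 0.24 FPKM in the same libraries. Of 7 measured red blood cell genes, 6 were lower in the Lgr5+ than in the Lgr5- library, and the 9 present in the files summed to 152 FPKM in Lgr5+ cells, 3551 FPKM in Lgr5- cells and 120 FPKM in Sox9+ cells. The part of these other cells in the Foxf2 and Foxc2 values was not tested.

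Both expressed FoxD genes were lowest in the Lgr5+ library and highest in the Sox9+ library. Foxd1, a marker of kidney stroma and part of the retina, stood at 0.71 FPKM in Lgr5+ cells, 3.43 FPKM in Lgr5- cells and 19.5 FPKM in Sox9+ cells. It was the 1 member to differ 2-fold in all 3 pairs, 2.59-fold lower in the Lgr5+ than in the Lgr5- library (log2 ratio -1.37), 12-fold lower in the Lgr5+ than in the Sox9+ library (-3.58) and 4.62-fold lower in the Lgr5- than in the Sox9+ library (-2.21). Foxd2, a kidney and facial mesenchyme factor, stood at 1.24, 6.09 and 10.9 FPKM in the Lgr5+, Lgr5- and Sox9+ libraries, 3.17-fold lower in the Lgr5+ than in the Lgr5- library (log2 ratio -1.66) and 5.32-fold lower than in the Sox9+ library (-2.41). Between the Lgr5- and Sox9+ libraries its log2 ratio was -0.75. Foxd2 lies 16.3 kb from Foxe3, a lens factor that was listed at 0 in both E14.5 libraries and at 0.41 FPKM in Sox9+ cells. Foxd3, a neural crest factor, stood at 0, 0.42 and 0.91 FPKM in the Lgr5+, Lgr5- and Sox9+ libraries. The 12 Schwann cell and nerve markers, Foxd3 among them, summed to 20.3, 27.8 and 42.4 FPKM in the same libraries. Within this list the genes went different ways: the neuron genes Tubb3 and Stmn2 were lower in Lgr5+ than in Lgr5- cells, and the Schwann cell lineage receptor gene Erbb3 was higher, at 4.72 FPKM in Lgr5+ against 1.07 FPKM in Lgr5- cells. Sox10, a neural crest and Schwann cell factor, stood at 5.88, 2.76 and 10.1 FPKM in the Lgr5+, Lgr5- and Sox9+ libraries, an order that Foxd3 did not share.

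Lgr5+ cells were next set against the Sox9+ cells of the earlier day, which carry the Sox9 reporter. The log2 ratio of Sox9 itself was 0.38, within 2-fold. Of 24 forkhead genes measured, none was higher and 9 were lower in the Lgr5+ library: Foxa3, Foxc2, Foxd1, Foxd2, Foxe1, Foxf1a, Foxo6, Foxp2 and Foxq1. Among all 12492 measured genes 8.29% passed 2-fold, 4.33% as higher and 3.96% as lower, so the 9 lower members are above the background share. The median log2 ratio was -0.40 over the members and 0.06 over all measured genes, and its median size was 0.50 and 0.30. Of all genes that passed 2-fold, 52.2% were higher in the Lgr5+ library with the deposited FPKM and 64.8% after rescaling to TPM. After that rescaling 11 of 28 measured forkhead genes were lower, the 9 above with Foxa1 and Foxd3, and 533 of all 13406 measured genes were lower.

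When Lgr5- cells were set against Sox9+ cells, Foxf2 was higher, and Foxa3, Foxc1, Foxd1, Foxe1, Foxf1a and Foxo6 were lower in the Lgr5- library, out of 24 measured. Among all 12482 measured genes 8.02% passed 2-fold, 3.08% as higher and 4.94% as lower. The 1 higher member is near that background share, and the 6 lower members are above it. The median log2 ratio was -0.48 over the members and -0.01 over all measured genes, and its median size was 0.70 and 0.29. Of all genes that passed 2-fold, 38.4% were higher in the Lgr5- library with the deposited FPKM, 52.3% after rescaling to TPM and 49.1% after scaling to the sum without the 50 highest genes. With TPM, 8 of 27 measured forkhead genes were lower, the 6 above with Foxa1 and Foxl2, and 644 of all 13402 measured genes were lower. Both comparisons share the Sox9+ library, so the members that are lower in both (Foxa3, Foxd1, Foxe1, Foxf1a and Foxo6) are not independent findings. Of the 24 expressed members, 2 (Foxc1 and Foxn3) had their highest value in the Lgr5+ library, 3 (Foxf2, Foxj2 and Foxp1) in the Lgr5- library and 19 in the Sox9+ library. For all genes at 1 FPKM or more the shares were 39.1% highest in Lgr5+ cells, 26.6% in Lgr5- cells and 34.3% in Sox9+ cells.

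**Figure D4:**
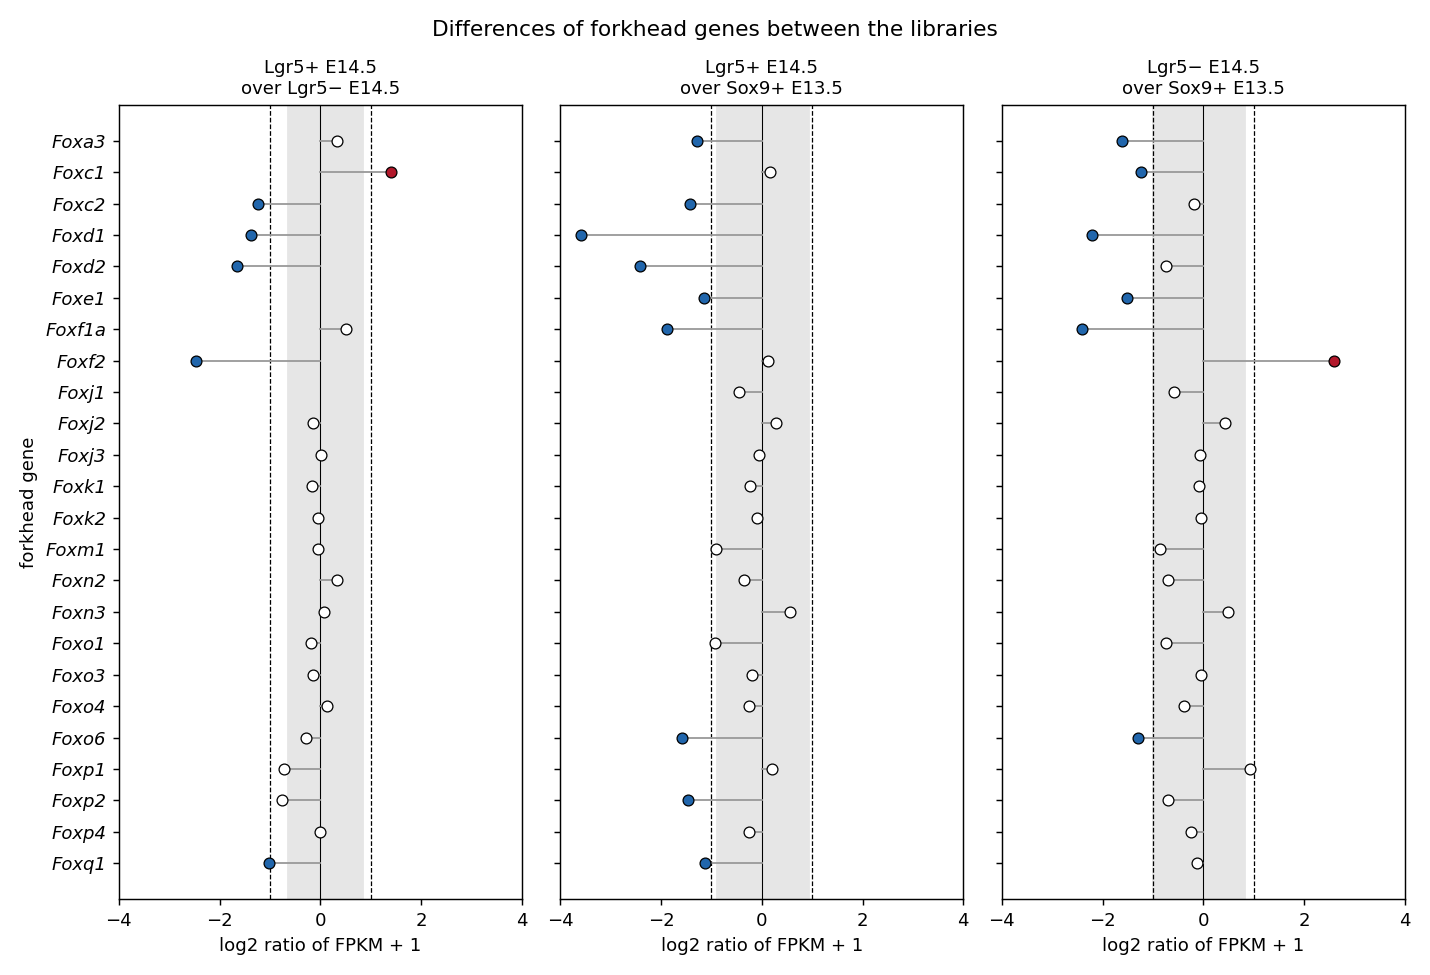
Log2 ratios of FPKM + 1 of the forkhead genes in the 3 pairs of libraries, Lgr5+ over Lgr5- (left), Lgr5+ over Sox9+ (middle) and Lgr5- over Sox9+ (right); red points are at least 2-fold higher, blue points at least 2-fold lower, white points within 2-fold (dashed lines), and the grey band holds the middle 90% of all measured genes. The Foxf2 point lies at -2.46 on the left, 0.13 in the middle and 2.59 on the right, and Foxd1 reaches -3.58 in the middle, while Foxe1 and Foxj1 have no point on the left because both libraries were under 1 FPKM.

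FoxA genes act in endoderm as pioneer factors that open chromatin, and in hypertrophic chondrocytes of the mouse. Foxa3 was the single FoxA gene above 1 FPKM, at 3.36 FPKM in Lgr5+ cells, 2.47 FPKM in Lgr5- cells and 9.6 FPKM in Sox9+ cells. It was 2.43-fold lower in the Lgr5+ library (log2 ratio -1.28) and 3.05-fold lower in the Lgr5- library (-1.61) than in the Sox9+ library, and its log2 ratio between the Lgr5+ and Lgr5- libraries was 0.33. Foxa2 stood at 0.58, 0.09 and 0.5 FPKM and Foxa1 at 0.1, 0.02 and 0.92 FPKM in the Lgr5+, Lgr5- and Sox9+ libraries. Of 11 measured chondrocyte maturation genes, 4 (Runx2, Runx3, Sp7 and Alpl) were lower in the Lgr5+ than in the Lgr5- library, with a median log2 ratio of -0.85. Of 13 measured chondrocyte maturation genes, 10 were lower in the Lgr5+ than in the Sox9+ library, with a median log2 ratio of -2.07, and 7 were lower in Lgr5- than in Sox9+ cells (median -1.11). No gene of this list was higher in any of the 3 pairs. The sphingomyelinase gene Smpd3 stood at 0.19, 0.29 and 30.7 FPKM and the channel gene Panx3 at 1.14, 1.16 and 27.7 FPKM in the Lgr5+, Lgr5- and Sox9+ libraries.

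FoxP genes were among the most abundant members, and the 3 expressed ones followed 3 patterns. Foxp1, which controls B cell and heart development and binds Runx2 in cartilage, stood at 27.1 FPKM in Lgr5+ cells, 45.6 FPKM in Lgr5- cells and 23.3 FPKM in Sox9+ cells. It was highest in the Lgr5- library but within 2-fold in each pair, with log2 ratios of -0.73 for Lgr5+ over Lgr5- and 0.94 for Lgr5- over Sox9+. That last ratio passed 2-fold after rescaling to TPM (1.06) and to the sum without the 50 highest genes (1.05). Foxp2, known for its role in vocal learning, stood at 11.9, 21 and 34.8 FPKM in the Lgr5+, Lgr5- and Sox9+ libraries, 2.78-fold lower in the Lgr5+ than in the Sox9+ library (log2 ratio -1.47). Foxp4 stood at 36.5, 36.7 and 43.9 FPKM in the same libraries, with a log2 ratio of -0.01 between the Lgr5+ and Lgr5- libraries. Within a library, Foxp1 had 2.28 times the FPKM of Foxp2 in the Lgr5+ library, 2.17 times in Lgr5- cells and 0.672 times in Sox9+ cells. Foxp3, the factor of regulatory T cells, reached at most 0.06 FPKM, and the T cell receptor subunit genes Cd3d, Cd3e and Cd3g reached at most 0.05 FPKM. The 9 T cell genes present summed to 3.62, 4.58 and 3.6 FPKM in the Lgr5+, Lgr5- and Sox9+ libraries, of which Lck gave 2.99, 3.57 and 2.96 FPKM.

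FoxO genes are the family's link to insulin and growth factor signalling, and in mice they maintain articular cartilage. Foxo1 stood at 8.64 FPKM in Lgr5+ cells, 9.96 FPKM in Lgr5- cells and 17.3 FPKM in Sox9+ cells. These are 1.9-fold and 1.67-fold below the Sox9+ library, just inside the threshold in the first case. Foxo6, best known from brain, stood at 3.36, 4.31 and 12.1 FPKM in the Lgr5+, Lgr5- and Sox9+ libraries, 3-fold lower in the Lgr5+ library (log2 ratio -1.58) and 2.46-fold lower in the Lgr5- library (-1.30) than in the Sox9+ library. Foxo3 stood at 2.25, 2.6 and 2.71 FPKM and Foxo4 at 1.16, 0.97 and 1.56 FPKM, within 2-fold in each pair. Of 22 measured genes of the Akt pathway and FoxO targets, none differed 2-fold between the Lgr5+ and Lgr5- libraries, with a median log2 ratio of 0.02. Against the Sox9+ library, 3 of 22 were lower in the Lgr5+ library (Pdk4, Klf2 and Gadd45a; median -0.13) and 4 of 23 in the Lgr5- library (the same 3 with Sgk1; median -0.16), and none was higher. Klf2, also a gene of shear stress in vessels, stood at 157, 94.9 and 501 FPKM, and the stress gene Gadd45a at 11.9, 12.7 and 36.5 FPKM in the Lgr5+, Lgr5- and Sox9+ libraries. Of 12 stress genes that cell dissociation can induce, none differed between the Lgr5+ and Lgr5- libraries, 7 were lower in the Lgr5+ and 6 in the Lgr5- than in the Sox9+ library, and none was higher. The 12 summed to 4134, 4265 and 7583 FPKM in the Lgr5+, Lgr5- and Sox9+ libraries. Their part in the FoxO values was not tested.

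Foxm1, the activator of mitotic genes, stood at 12.3 FPKM in Lgr5+ cells, 12.7 FPKM in Lgr5- cells and 23.9 FPKM in Sox9+ cells. The E14.5 libraries hardly differed from each other (log2 ratio -0.04) and were 1.87-fold and 1.82-fold below the Sox9+ library, within 2-fold. Of 16 mitosis genes that Foxm1 activates, none differed 2-fold between the Lgr5+ and Lgr5- libraries, with a median log2 ratio of 0.31. None differed between the Lgr5+ and Sox9+ libraries (median -0.49), and 2, Ccnb1 and Top2a, were lower in the Lgr5- than in the Sox9+ library (median -0.78). The 16 summed to 424, 357 and 624 FPKM in the Lgr5+, Lgr5- and Sox9+ libraries. The proliferation marker Mki67 stood at 15.3, 17 and 30.6 FPKM in the same libraries.

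The expressed FoxJ, FoxK and FoxN genes stayed within 2-fold in every pair in which they were measured, which leaves out Foxj1 between the Lgr5+ and Lgr5- libraries. Foxk2 and Foxk1, which regulate autophagy and glycolysis genes, stood at 19.1, 19.7 and 20.4 FPKM and at 2.43, 2.82 and 3.04 FPKM in the Lgr5+, Lgr5- and Sox9+ libraries. Their highest library exceeded their lowest 1.07 times for Foxk2 and 1.25 times for Foxk1. Foxk1 is also a factor of muscle progenitors, and its log2 ratio between the Lgr5+ and Lgr5- libraries was -0.16. The 12 muscle markers summed to 106 FPKM in Lgr5+ cells, 27.9 FPKM in Lgr5- cells and 21 FPKM in Sox9+ cells. Of 9 measured between the Lgr5+ and Lgr5- libraries, 8 were higher in the Lgr5+ library. The part of muscle cells in the Foxk1 values was not tested. Foxj3 stood at 12.6, 12.5 and 13.2 FPKM, a span of 1.05 times and the narrowest of the 13 expressed members that were not called in any pair, and Foxj2 at 9.04, 10.1 and 7.25 FPKM. Foxj1, the master regulator of motile cilia, stood at 0.72, 0.57 and 1.34 FPKM, the widest span of the 13 at 2.35 times before 1 FPKM is added. With 0.1 FPKM added instead, its log2 ratio of Lgr5- over Sox9+ was -1.10, past 2-fold. The motile cilia genes Spag6 and Hydin were listed at 0 in all 3 libraries, and Rsph1 reached at most 0.35 FPKM. Tekt1 stood at 0.68, 2.27 and 1 FPKM and Ccdc39 at 1.21, 1.01 and 0.93 FPKM in the Lgr5+, Lgr5- and Sox9+ libraries. The 7 motile cilia genes present summed to 2.03, 3.42 and 2.46 FPKM, most of it from Tekt1 and Ccdc39. Foxn3, a repressor linked to the DNA damage checkpoint, stood at 59.8, 56.9 and 40.5 FPKM in the Lgr5+, Lgr5- and Sox9+ libraries and Foxn2 at 4.97, 3.72 and 6.64 FPKM, both within 2-fold in each pair. Foxn1, the thymus and hair factor missing in nude mice, reached at most 0.03 FPKM.

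The remaining members were weak. Foxe1, a factor of thyroid and palate, stood at 0.28 FPKM in Lgr5+ cells, was listed at 0 in the Lgr5- library and stood at 1.84 FPKM in Sox9+ cells. It was 2.22-fold lower in the Lgr5+ than in the Sox9+ library. Foxl2, the ovary factor, stood at 0.49, 0 and 0.78 FPKM, and reads of its antisense neighbour Foxl2os (at most 0.03 FPKM) cannot be told from its own without strand. Foxi3, a factor of ectodermal placodes, stood at 0.33, 0.25 and 0 FPKM in the Lgr5+, Lgr5- and Sox9+ libraries. Foxh1, a partner of Smad proteins, stood at 0.09, 0.23 and 0 FPKM in the same libraries. The 12 epidermal markers summed to 74.5 FPKM in Lgr5+ cells, 31.6 FPKM in Lgr5- cells and 71.7 FPKM in Sox9+ cells, with 6 of 11 measured genes higher in the Lgr5+ than in the Lgr5- library, and their part in the Foxq1, Foxe1 and Foxi3 values was not tested. Foxb1, Foxb2, Foxn4 and Foxr1 were listed at 0 in the Lgr5+ library and reached at most 0.35 FPKM in the others. Transcripts annotated on the opposite strand over exons of Foxe1, Foxj2, Foxo1 and Foxq1 have no row under their annotated symbols, and without strand their reads cannot be told from those of these genes. Foxs1, expressed in pericytes and neural crest cells, was listed at 0 throughout.

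Limb genes were read because the labels name the limb for the E14.5 libraries alone. The hindlimb gene Hoxc10 stood at 0.37 FPKM in Lgr5+ cells, 0.21 FPKM in Lgr5- cells and 17 FPKM in Sox9+ cells. Pitx1, the hindlimb selector, stood at 56.5, 83.2 and 161 FPKM, and the forelimb gene Tbx5 at 20.9, 11.9 and 4.92 FPKM in the same libraries. Tbx4, another hindlimb gene, stood at 22, 28 and 36.8 FPKM, within 2-fold in every pair and above Tbx5 in all 3 libraries. Of 15 cartilage genes, 10 were lower in the Lgr5+ and 14 in the Lgr5- than in the Sox9+ library, with medians of -1.27 and -1.94. The part of limb and cartilage content in the forkhead genes that were highest in the Sox9+ library was not tested. Of 14 interzone genes, 10 were higher in the Lgr5+ than in the Lgr5- library and none was lower, with a median of 1.36, and Foxc1 was the 1 forkhead gene higher in that comparison. Between the same libraries 5 of 15 cartilage genes were higher (Sox9, Sox5, Sox6, Col9a2 and Col9a3) and 2 lower (Matn1 and Comp), with a median of 0.69. Against the Sox9+ library 8 of the 14 interzone genes were higher in Lgr5+ cells, with a median of 1.28, where the log2 ratio of Foxc1 was 0.17. Of 8 macrophage markers measured between the Lgr5+ and Lgr5- libraries, 3 were higher in the Lgr5+ library and none was lower. Of 8 measured against the Sox9+ library, 7 were higher in Lgr5+ cells and none was lower. The 9 markers present summed to 84.1, 44.5 and 11.5 FPKM in the Lgr5+, Lgr5- and Sox9+ libraries.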

How the data were processed

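Each library started from 10 ng of RNA and was built with SMARTer ultra-low-input chemistry, per the labels' protocols; kits of this kind do not mark the strand. The authors deposited FPKM per gene symbol, rounded to 2 decimals, in 1 file for each of 3 libraries. The submitters' processing notes name HISAT2 and mm10 (GRCm38). Not given in the sources used here: how FPKM were computed and on which annotation.

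The files hold no counts. Low FPKM of single-transcript genes were searched for whole-fragment steps, with best scores of 0.382 to 0.429, against 0.359 to 0.397 with gene lengths shuffled, so depth is unknown and no counting interval was computed. Log2 ratios of FPKM + 1 were computed in 3 pairs of libraries (Python 3.11.15, pandas 2.3.3), with a minimum of 1 FPKM in the higher library and a threshold of 2-fold. The calling step was run on simulated data with an assumed depth and no variation between samples. That run checks the calculation and not the reliability of the calls in these libraries. No test was possible with 1 library per group. Every forkhead gene at 1 FPKM or more in any library was named with its values, the others by range. Coordinates and exons are from GENCODE M21 and promoters from RefSeq (GRCm38.p6), where 28 of the 44 genes had one. The alternatives were another pseudocount, other minimums and 3 other scalings. The members and lists were chosen with earlier results of these data known, and the limb genes Hoxc10, Pitx1, Tbx4 and Tbx5, the neighbour Mthfsd, the exon count, the ratios and the promoter motifs after values were seen. Single values of 1 forkhead gene and 1 hedgehog pathway gene are not reported here, though counts and medians include them.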

Additional observations from a re-analysis of the deposited data

How the results depend on the processing

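All 22 forkhead differences of 2-fold or more kept their direction and stayed past 2-fold under each of the 6 alternatives that gave a value. With a minimum of 5 FPKM, weak members drop out by construction. Of 403 log2 ratios recomputed for the members at 1 FPKM or more as deposited, 4 newly passed 2-fold and none reversed. Another minimum leaves a log2 ratio as it is, and a smaller pseudocount can only enlarge it. Only the 3 other scalings could therefore have lost or reversed a difference. TPM scaling also lifted weaker members over the minimum, giving 11 lower in Lgr5+ over Sox9+ cells (Foxa1 and Foxd3 added) and 8 lower in Lgr5- over Sox9+ cells (Foxa1 and Foxl2 added). Over all genes, 533 of 13406 and 644 of 13402 were lower in these pairs with TPM. With a pseudocount of 0.1 FPKM the ratios that newly passed were Foxf1a in Lgr5+ over Lgr5- cells, just past 2-fold and making 2 higher members, and Foxj1 in Lgr5- over Sox9+ cells (-1.10). Foxp1 in Lgr5- over Sox9+ cells passed with TPM scaling (1.06) and with the sum without the 50 highest genes (1.05), making 2 higher members in each. With a minimum of 5 FPKM, 3 members remained lower in Lgr5+ over Lgr5- cells. Counts over all genes moved more. With a pseudocount of 0.1 FPKM, 694 were higher and 458 lower in Lgr5+ over Lgr5- cells, 900 and 785 in Lgr5+ over Sox9+ cells, and 721 and 958 in Lgr5- over Sox9+ cells. TPM scaling gave 355 lower genes in Lgr5+ over Lgr5- cells, 981 higher in Lgr5+ over Sox9+ cells and 706 higher in Lgr5- over Sox9+ cells, and a minimum of 5 FPKM gave 253 higher in the last. TPM scaling moved the median log2 ratio of all genes by 0.14 in Lgr5+ over Sox9+ cells and 0.11 in Lgr5- over Sox9+ cells, and the sum without the 50 highest genes moved the last by 0.11. The forkhead median stayed below that of all genes in every setting, by 0.06 to 0.98 (log2). The members highest in the Sox9+ library numbered 19 of 24 with median of ratios scaling, 18 of 28 with TPM and 15 of 24 with the sum without the 50 highest genes. Of all genes reaching 1 in any library, 36.8%, 24.6% and 28.4% were highest there, in the same order. No paired analysis was possible because each group is 1 library. Depth is unknown, so values under 1 FPKM carry an unknown counting error.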
